A study of Mus musculus with 4 samples.

Results

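The BCL2 family decides whether mitochondria release cytochrome c in apoptosis, and 10 of its genes were read here in Ruvbl2 CUT&Tag peak lists from mouse bone marrow. They are the survival genes Bcl2, Bcl2l1, Mcl1 and Bcl2a1a and the death genes Bax, Bak1, Bcl2l11, Bbc3, Pmaip1 and Bid. These 10 of 21887 protein-coding genes were chosen by name and not by their peaks, though earlier results of these data were known. For each gene, every peak that overlapped the gene body or 10 kb on either side (the window) was collected from 4 lists. CUT&Tag uses an antibody to bring a transposase to chromatin, and Ruvbl2 is an ATPase found in the INO80, SRCAP and TIP60 chromatin complexes. Haematopoietic stem cells (HSC) were sorted as CD48-CD150+ LSK cells from Nup214 fl/+ mice. Leukaemia stem cells (LSC) were sorted as Lin-, Sca-1-, c-Kit+, CD16/32+ and CD34+ cells from Nup214 fl/+ mice with leukaemia driven by MLL-AF9. Each group had 2 libraries, all 4 from mice with the floxed Nup214 allele. They are called HSC1, HSC2, LSC1 and LSC2 here, by the replicate number of the labels, and 4 values in a row follow that order. The sources used here name no Cre driver, strain or age and do not say whether replicates came from separate animals, so the spread between replicates may be technical. The LSC gate also describes normal granulocyte-monocyte progenitors, so leukaemia and maturation cannot be told apart.

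The deposited lists held 161655 to 286107 peaks per library, and read depth is unknown because the lists carry no totals. Comparisons used the 20000 peaks with the largest −log10 p in each library, called listed peaks, and a peak's rank is its place in that order (1 is the strongest). At the end of the listed range the fold, a peak's height over the background of its own library, was 22.7, 12.7, 28.4 and 18.2, so a fold is read only within its own library. The libraries stood apart by replicate number: listed peaks had a median width of 714 and 634 bp in the replicate 2 libraries and of 484 and 371 bp in the replicate 1 libraries, HSC first. Peak names also follow 1 scheme in replicate 1 and another in replicate 2 of both groups. At their gene ends, 0 of 6 HSC marker genes carried a listed peak in any library, whereas 2, 3, 3 and 3 of 6 progenitor and LSC marker genes did. The share of all protein-coding genes was 10.6%, 25.1%, 11.0% and 25.5%. In their windows, 2, 3, 2 and 3 HSC marker genes were listed, Mecom in all 4 libraries, and 4, 5, 4 and 5 of the progenitor and LSC marker genes. Kit is in both lists, and its window was listed in both HSC and neither LSC library (2.33% of all genes). Of 2 MLL fusion targets, 2, 1, 2 and 1 had listed windows, and of 5 marker genes of other cells, 1, 1, 2 and 2. Among the latter, Cd79a was listed in both LSC and neither HSC library (2.84% of all genes). The window shares of all genes were 42.1%, 51.8%, 44.3% and 52.0%. Ctsg, a granule protease gene, carried a listed peak at a gene end in all 4 libraries, HSC included. No control library was used here, and how far a peak depends on that antibody was not tested.

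As background, the survival proteins BCL2, BCL-XL (from Bcl2l1), MCL1 and A1 (from Bcl2a1a) hold the effectors BAX and BAK in check. The BH3-only proteins BIM (Bcl2l11), PUMA (Bbc3), NOXA (Pmaip1) and BID start the process by binding the survival proteins or by activating the effectors. BAX and BAK then open the outer mitochondrial membrane. Normal haematopoietic stem cells and MLL-rearranged leukaemias are both known to depend on MCL1. Bbc3, Pmaip1 and Bax are known p53 targets.

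Annotated starts were covered by listed peaks in at least 2 libraries at 3 of the 9 genes with a known start, namely Mcl1, Bcl2l1 and Bbc3. Of all 17492 protein-coding genes with a start, 74.4% had a listed peak over it in no library and 12.9% in exactly 1. The promoters of the 3 genes are shown because the start-site results below turn on them. Each runs 5′ to 3′ from 250 bases before to 50 bases after the start, taken from RefSeq for GRCm38.p6, which has mm10 coordinates. Capitals mark the motif matches searched for.
Mcl1, start at 95658721, chr3:95658471-95658770, plus strand: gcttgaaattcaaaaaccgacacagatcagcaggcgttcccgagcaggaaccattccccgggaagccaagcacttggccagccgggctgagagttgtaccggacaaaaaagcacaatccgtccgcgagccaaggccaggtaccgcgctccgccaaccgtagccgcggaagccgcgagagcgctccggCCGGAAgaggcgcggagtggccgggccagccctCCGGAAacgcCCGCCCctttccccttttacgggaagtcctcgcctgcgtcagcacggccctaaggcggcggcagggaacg
Bcl2l1, start at 152830717, chr2:152830668-152830967, minus strand: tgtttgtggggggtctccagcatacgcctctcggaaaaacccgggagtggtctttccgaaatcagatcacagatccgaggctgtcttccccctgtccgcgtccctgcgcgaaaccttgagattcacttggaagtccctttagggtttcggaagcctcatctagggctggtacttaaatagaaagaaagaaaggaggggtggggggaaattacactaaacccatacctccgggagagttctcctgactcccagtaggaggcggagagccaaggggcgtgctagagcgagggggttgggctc
Bbc3, start at 16310261, chr7:16310011-16310310, plus strand: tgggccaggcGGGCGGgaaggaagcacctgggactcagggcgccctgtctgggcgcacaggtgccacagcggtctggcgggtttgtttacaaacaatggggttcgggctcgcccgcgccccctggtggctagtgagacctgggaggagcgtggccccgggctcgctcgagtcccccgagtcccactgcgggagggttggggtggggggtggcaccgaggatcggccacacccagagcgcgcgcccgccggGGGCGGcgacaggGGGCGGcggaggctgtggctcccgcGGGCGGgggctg
Bbc3, start at 16310431, chr7:16310181-16310480, plus strand: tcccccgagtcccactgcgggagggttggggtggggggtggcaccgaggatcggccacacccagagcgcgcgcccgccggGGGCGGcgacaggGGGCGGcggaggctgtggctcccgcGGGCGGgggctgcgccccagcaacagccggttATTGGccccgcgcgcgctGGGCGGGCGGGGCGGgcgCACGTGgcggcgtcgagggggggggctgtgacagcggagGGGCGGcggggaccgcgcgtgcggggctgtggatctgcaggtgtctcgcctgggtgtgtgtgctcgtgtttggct

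The 3 genes differed in base composition and motif content. The GC content was 65.7% for Mcl1, 55.7% for Bcl2l1, and 74.7% and 78.0% for the overlapping Bbc3 promoters, beside a median of 52.67% over 32851 RefSeq promoters. Mcl1 held ETS cores (CCGGAA) at −63 and −30 and a GC box (GGGCGG) at −20 relative to its start. Bbc3 held 4 GC boxes in its first printed promoter and 7 in the second, with an E-box (CACGTG) at −64 in the latter. The Bcl2l1 promoter held none of the motifs searched. On both strands, 35.7% of all RefSeq promoters held a GC box, 37.4% a CCAAT box (CCAAT), 14.9% an ETS core, 13.6% a TATA box (TATAAA), 7.15% an E-box, 5.2% an AP-1 site (TGACTCA) and 8.36% the p53 decamer. AP-1 sites and TATA boxes were found in 0 of the 14 promoters of these genes, and the p53 decamer was found only in that of Bax, at −201. Among promoters with no listed peak over the start in any library, that of Bcl2 held 7 GC boxes at 76.0% GC, and that of Bak1 held no match. A match is a description of the letters and not a binding site.

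Most of the 10 genes carried a strong Ruvbl2 peak somewhere in their window. Listed peaks lay in the windows of 6, 9, 7 and 9 genes, and in those of 42.1%, 51.8%, 44.3% and 52.0% of all protein-coding genes. Bcl2, Bcl2l1, Mcl1, Bax, Bbc3 and Pmaip1 had one in all 4 libraries, a pattern shown by 18.1% of all genes. Bcl2l11 was listed in every library but HSC1 (7.92% of genes), Bak1 and Bid in both replicate 2 libraries only (6.74%), and Bcl2a1a in none (22.7%). Any peak at all, however weak, lay in the window of all 10 genes in each library, but so it did for 90.8%, 95.5%, 93.9% and 93.9% of genes.

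**Figure D1:**
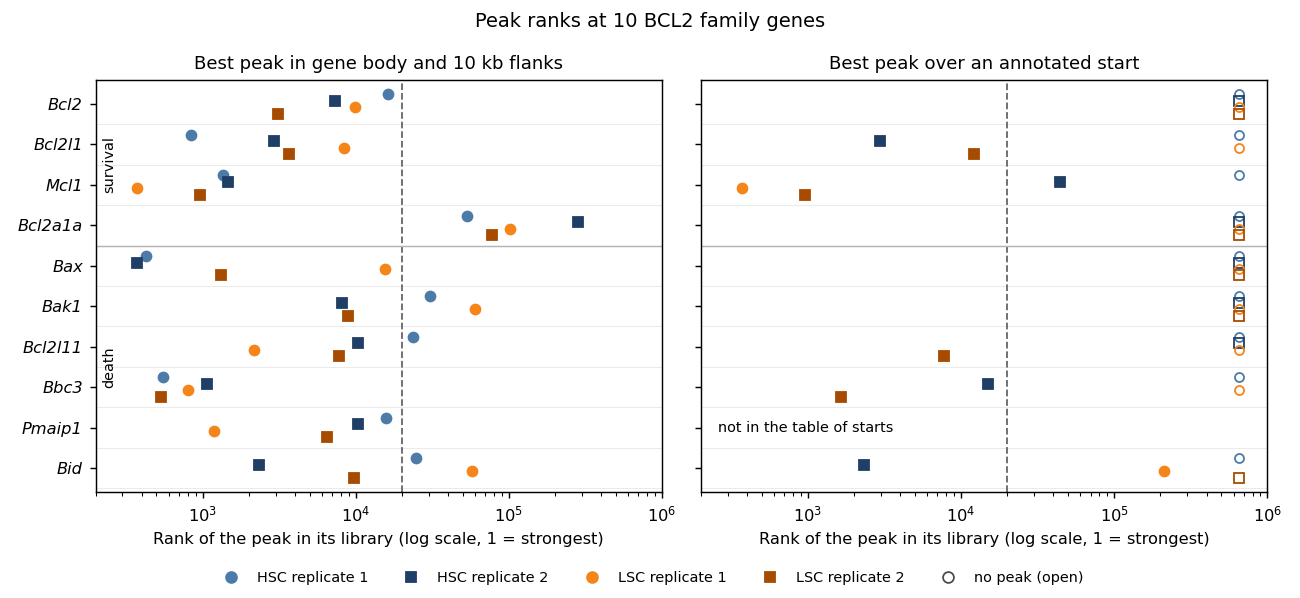
Rank of the strongest peak in the window of each gene (log axis, rank 1 is the strongest), for the whole window on the left and for peaks over an annotated start on the right, with 1 point per library, open points where there was no peak, and a dashed line at rank 20000, the end of the listed range. In the window, Bbc3 and Mcl1 lie at ranks of 1474 or better in all 4 libraries, and Bcl2a1a lies outside the listed peaks in all 4.

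The windows were also denser in peaks than those of other genes. The median over the 10 genes was 12.89, 19.27, 13.99 and 19.08 peaks per 100 kb, beside 7.35, 14.33, 10.66 and 10.88 over all genes. In all, 355 peaks fell in the windows, of which 70 (19.7%) were listed. Of these 70, 38 touched the gene body and 32 only a flank. RefSeq starts were at hand for 9 of the 10 genes, 14 starts in all, and these 9 genes held 64 of the listed peaks. Of the 64, 14 had their summit within 1000 bp of an annotated start of the gene itself. The nearest start in the RefSeq table was the gene's own for 56 of the 64, and for the other 8 it belonged to Ftl1 (7 peaks in the Bax window) or Ggnbp1 (1 in the Bak1 window). The table lacks some neighbouring genes, and exons and introns were not assigned because it holds none.

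Among the survival genes, Mcl1 had the strongest peaks, and their place differed between libraries. MCL1 is a short-lived survival protein. Its best window peak ranked 1352, 1474, 371 and 959. Only 0.795% of all genes had a worst rank over the 4 libraries as good as this. In both HSC libraries that best peak lay upstream, with summits 7810 and 7760 bp before the annotated start (chr3:95650485-95651351 and chr3:95649909-95652910, folds 55.5 and 27.9). In both LSC libraries it lay at the start itself, with summits 1 and 228 bp before it (chr3:95658448-95658901 and chr3:95657551-95658906, folds 118 and 50.4). This start lies within the ETS and GC box sequence printed above. The replicate 2 libraries had a peak at both places. The upstream site was also listed in LSC2 (chr3:95649974-95651913, rank 1330, fold 44.7), and HSC2 had a weaker peak over the start (chr3:95658417-95658901, rank 44291, fold 10.3). In the replicate 1 libraries presence itself differed. HSC1 had no peak over the start, and LSC1 had none at chr3:95649909-95652910, its start peak being the only listed peak of the window. A downstream region, chr3:95667984-95669236, was listed in HSC1 (rank 9908), HSC2 (rank 4928) and LSC2 (rank 16590).

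Bcl2l1, which encodes the survival protein BCL-XL, was listed in all 4 libraries at different sites. Its best window peaks ranked 845, 2944, 8383 and 3668, and 6.63% of genes had a worst rank as good. Around its annotated starts, a region at chr2:152830677-152831746 was listed in HSC2 (rank 2944, fold 21.7), LSC1 (rank 8715, fold 44.1) and LSC2 (rank 12148, fold 21.0). In HSC1 only a peak of rank 151055 lay there, and its nearest listed peak had its summit 748 bp inside the gene from a start (chr2:152829735-152830062, rank 3338). The start printed above was covered in HSC2 and LSC2, whereas the LSC1 peak lay between starts. Inside the gene body, chr2:152788431-152789760 was listed in both replicate 2 libraries, with ranks of 4293 in HSC and 3668 in LSC and summits 13 bp apart. The strongest peak of HSC1 (chr2:152763075-152763783, rank 845, fold 60.7) lay where the annotated 3′ part of Bcl2l1 overlaps Cox4i2, so it cannot be assigned to either gene.

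Bcl2, the founding survival gene, had many weak peaks along its long body and no shared strong site. Its window held 12, 31, 26 and 21 peaks, of which 1, 2, 2 and 2 were listed. The best ranks were 16282, 7362, 9828 and 3111 in that order. None of the listed regions was shared between libraries. The strongest was in LSC2, 2104 bp inside the gene from its start (chr1:106711235-106712589, fold 31.8). HSC2 had one whose summit lay 577 bp before the start (chr1:106714579-106715263, rank 19143, fold 12.7), near the end of the listed range, and the annotated start was covered by a listed peak in no library.

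Bcl2a1a encodes A1, a survival protein of myeloid and lymphoid cells, and was the weakest of the 10. Its best window ranks were 53156, 284257, 101626 and 78064, with folds of 16.1, 3.56, 11.9 and 10.4,. In HSC2 its window held 1 peak. The mouse genome holds near-identical copies of this gene, among them Bcl2a1b and Bcl2a1d. The sources used here do not say how reads that map to several copies were handled, so low values at this gene are uncertain.

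Of the effectors, Bax had strong window peaks that lay mostly beside another gene. Its best ranks were 429, 375, 15409 and 1312. These peaks belong to regions at chr7:45456440-45458292, listed in all 4 libraries, and chr7:45458632-45461369, listed in all but HSC1. The nearest start in the RefSeq table for the 7 listed peaks there was that of Ftl1, the ferritin light chain gene at chr7:45457944-45459886. Nearer to Bax itself, its body carried a listed peak in HSC1 (chr7:45465009-45465705, rank 12187, fold 29.5) and LSC2 (chr7:45464810-45466582, rank 9340, fold 22.4). A region upstream of its start, chr7:45470543-45471527, was listed in HSC1 (rank 18629), HSC2 (rank 18890) and LSC2 (rank 6545), and held a peak of rank 36252 in LSC1. The Bax start itself, whose promoter held the p53 decamer, was covered by a listed peak in no library.

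Bak1, the other effector, was listed in the replicate 2 libraries only. Its best window ranks were 30627, 8122, 60187 and 8864. The best peaks of the replicate 2 libraries lay at chr17:27025286-27026146 in HSC (fold 15.9) and at chr17:27027517-27027983 in LSC (fold 22.7, 873 bp inside the gene from its start), and they did not overlap. Bak1 is annotated inside Ggnbp1, so any of its peaks may also be counted to that gene.

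Bbc3 was the most uniformly strong of the 10 genes. It encodes PUMA, the BH3-only protein that p53 induces after DNA damage. Its best window ranks were 552, 1061, 801 and 534, and 0.585% of all genes had a worst rank as good. All 4 best peaks fell in 1 region inside the gene, chr7:16312415-16314052, with folds of 67.2, 31.6, 99.0 and 62.9 in the same order. Their summits lay 2686, 2448, 2819 and 2467 bp downstream of the last annotated start, a spread of 371 bp. The starts printed above were a separate site. They were covered by a listed peak in HSC2 (chr7:16309847-16310915, rank 15006, fold 13.7) and by a peak of 4517 bp in LSC2 (chr7:16307732-16312248, rank 1632, fold 41.3). Only weaker peaks lay in that region in HSC1 (rank 28689) and LSC1 (rank 147012).

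**Figure D2:**
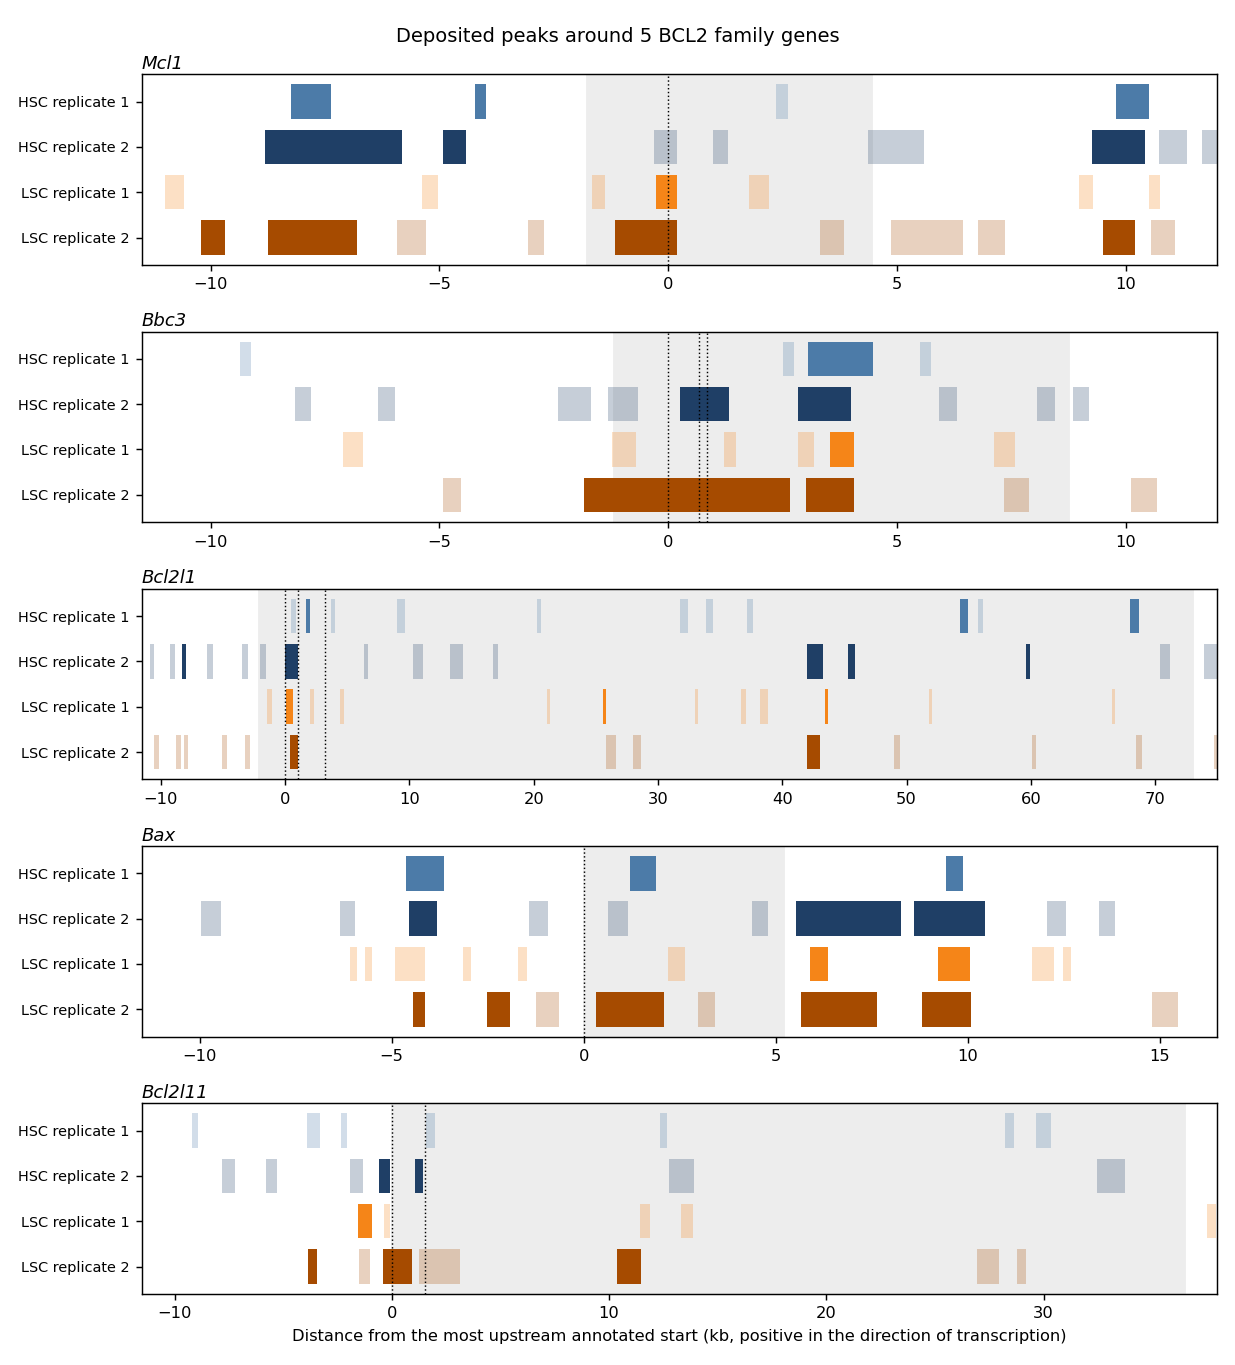
Peaks around Mcl1, Bbc3, Bcl2l1, Bax and Bcl2l11 in the 4 libraries, by distance in kb from the most upstream start in the RefSeq table, with listed peaks in full colour, weaker ones pale, the gene body shaded and annotated starts dotted. The Bbc3 internal peak is listed in all 4 libraries, and the listed peak at the Mcl1 start is found in both LSC libraries only.

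Bcl2l11, Pmaip1 and Bid, the other BH3-only genes, carried weaker and less shared peaks. Bcl2l11 encodes BIM, which mediates death after cytokine withdrawal, and its best ranks were 23479, 10363, 2169 and 7766. Of its 6 listed peaks, 3 lay near its first annotated start, at different points. Summits lay 440 bp before that start in HSC2 (chr2:128125426-128125934, rank 13312), 1485 bp before it in LSC1 (chr2:128124502-128125139, rank 2169, fold 78.7) and 57 bp after it in LSC2 (chr2:128125638-128126961, rank 7766). The best peak of HSC2 lay 358 bp before the second annotated start (chr2:128127114-128127468, rank 10363). LSC2 had a further 2 listed peaks, with summits 3582 bp before the first start (rank 15891) and 9160 bp after the second (chr2:128136394-128137518, rank 18562). The neighbouring gene Acoxl overlaps the first start, so peaks there cannot be assigned to 1 of the 2 genes.

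Pmaip1 encodes NOXA, which binds MCL1. It ranked 15774, 10320, 1186 and 6471. Of its 6 listed peaks, 5 lay in the flanks. The best peaks of HSC1 (chr18:66467438-66468056, fold 25.4), HSC2 (chr18:66475231-66476293, fold 15.0) and LSC2 (chr18:66469984-66470452, fold 24.8) lay beyond the right end of the gene and did not overlap each other. The HSC2 peak reached past the window edge, where it joined a listed LSC2 peak of rank 2204 outside the window (merged region chr18:66475231-66476591). The LSC1 peak, on the left side at chr18:66457366-66457550, had a fold of 91.0 but was 185 bp wide, and no other library had a listed peak there. HSC1 had a peak over the left end of the gene, chr18:66458276-66459017, that fell just outside the listed range with rank 20617. In HSC2 a peak over the same end was listed (chr18:66458091-66459279, rank 11354, fold 14.6). BID links death receptors to mitochondria, and its gene ranked 24561, 2333, 57252 and 9677 in the same order. The HSC2 peak (chr6:120914475-120917331, fold 23.8) covered the Bid start. In LSC2 the only listed peak lay inside the gene at chr6:120906353-120906907 (fold 22.2).

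Survival and death genes were set side by side in each library. Of the 4 survival genes, the same 3 (Bcl2, Bcl2l1 and Mcl1) were listed in each library. Of the 6 death genes, 3, 6, 4 and 6 were listed. The median best rank was 8817, 5153, 9106 and 3390 for survival genes and 19630, 5228, 8789 and 7118 for death genes, beside 27910, 18440, 25280 and 18280 over all genes. Survival genes thus had the better median rank in 3 of 4 libraries, and death genes in LSC1. A best rank is not adjusted for window length. The windows of Bcl2 and Bcl2l1 span 196.1 and 95.07 kb, whereas the longest of a death gene (Bcl2l11) spans 56.51 kb. Median peaks per 100 kb were 11.67, 17.9, 13.99 and 17.69 for survival genes and 14.02, 24.89, 13.61 and 22.64 for death genes. By that measure death genes were denser in all libraries but LSC1. Genes are not replicates, so these differences have no test.

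Near gene ends, more death genes than survival genes were listed in 3 of the 4 libraries, but counts over starts did not keep this order. A listed peak within 1000 bp of either annotated end was found for 0, 5, 2 and 5 of the 10 genes, against 10.6%, 25.1%, 11.0% and 25.5% of all genes. Survival genes made up 0, 1, 0 and 1 of these (out of 4), and death genes 0, 4, 2 and 4 (out of 6). Bax was among the death genes in 3 libraries, each time through a peak whose nearest start was that of Ftl1. None of the 10 was listed at an end in all 4 libraries (2.91% of genes). At Mcl1, Bcl2l1 and Bbc3 the annotated ends lie more than 1000 bp from the starts in the RefSeq table. The end rule thus missed listed peaks over the starts of Mcl1 in LSC1 (rank 371) and Bbc3 in HSC2 (rank 15006). It also missed those of Bcl2l1 in HSC2 (rank 2944) and LSC2 (rank 12148). Over the annotated start itself, 0, 3, 1 and 4 of 9 genes were covered by a listed peak, against 4.33%, 17.3%, 4.56% and 17.5% of the 17492 genes with a start. At starts the survival genes numbered 0, 1, 1 and 2 of 4 and the death genes 0, 2, 0 and 2 of 5.

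**Figure D3:**
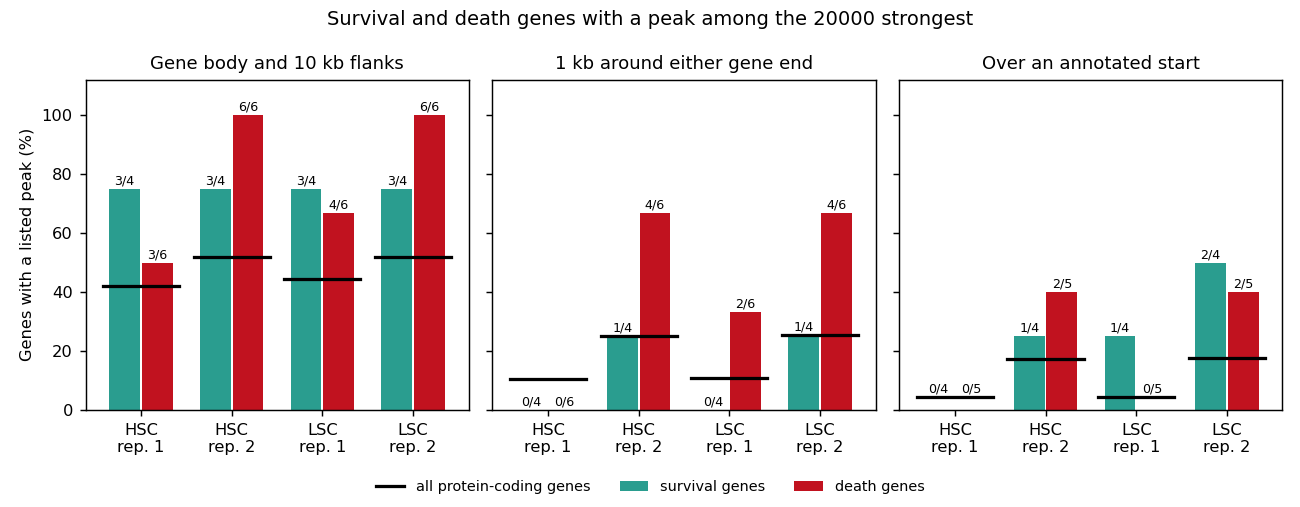
Survival and death genes with a listed peak in the window, at a gene end and over an annotated start, in percent of the genes of each group, with a bar per group and library and a black line at the share of all protein-coding genes. Window shares of survival genes are equal in the 4 libraries, with 3 of 4 genes, and those of death genes range from 3 to 6 of 6.

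The comparison of LSC with HSC asked whether these genes gained or lost Ruvbl2 peaks in leukaemia, and no gene was listed in its window in 1 cell type alone. Genes listed in both LSC and neither HSC library numbered 0 (2.84% of all genes), and the reverse pattern also 0 (2.33%). On average 7.5 genes were listed in HSC and 8.0 in LSC, a difference of 0.5 (p = 1.0, two-sided exact permutation test over libraries). With 2 libraries against 2 the smallest possible p is 0.333, so this test cannot pass 0.05. Within replicate number 1 the difference was 1 gene (Bcl2l11) and within number 2 it was 0. Any peak at a gene end, of any strength, was found for 2 and 9 genes in HSC replicates 1 and 2 and for 7 and 8 in LSC replicates 1 and 2 (38.2%, 64.5%, 47.6% and 58.8% of all genes in that order). Means were 5.5 in HSC and 7.5 in LSC (difference 2.0, p = 1.0, the same exact permutation test). Within replicate number 1 LSC had 5 genes more, and within number 2 it had 1 fewer, so the direction turned.

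Narrower rules gave an LSC-only count at 3 genes, and at 2 of them the LSC peaks that met the rule did not overlap. Mcl1 was the 1 gene whose annotated start lay in a listed peak in both LSC and neither HSC library, a pattern of 0.412% of genes with a start, beside 0.269% and 0.429% for the crossed pairs of libraries. Counting the gene body without flanks also gave Mcl1 alone (2.3% of genes). Among the 10000 strongest peaks of each library, Bcl2l11 and Pmaip1 were found in both LSC and neither HSC library (2.32% of genes). Their HSC2 ranks, 10363 and 10320, lay just beyond that limit. At both genes the LSC1 and LSC2 peaks that met it lay at different places and did not overlap. At lower rank the Bcl2l11 sites were shared. The LSC1 peak of Bcl2l11 overlapped peaks of LSC2 (rank 56772) and HSC2 (rank 20913, just outside the listed range). The LSC2 peak of Bcl2l11 overlapped a peak of LSC1 (rank 148852) and a listed peak of HSC2 (rank 13312). The HSC-only pattern was shown by 0 of the genes under these rules (0.372% of genes at starts, 2.0% in gene bodies and 2.03% among the 10000 strongest peaks).

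The replicate number divided the genes as well. Bak1 and Bid were listed in both replicate 2 libraries and in neither replicate 1 library, and Bcl2l1 and Bbc3 were so at their starts (6.77% of genes with a start). Of the peaks of HSC2 in the windows, 41.1% overlapped a peak of LSC2, and 44.3% the other way round, beside 14.5% and 19.9% for all peaks of these libraries. Of the peaks of HSC1, 31.0% overlapped one of HSC2 (16.7% for all peaks), 27.6% one of LSC2 (12.7%) and 19.0% one of LSC1 (10.6%). Of the peaks of LSC1, 33.0% overlapped one of HSC2 (15.9%), 28.4% one of LSC2 (12.3%) and 12.5% one of HSC1 (7.99%). The window share was above the all-peak share in each of these comparisons. The all-peak share covers peaks anywhere in the genome, intergenic ones included, and not gene windows alone, so the sets are unlike. Shares of unequal lists differ by list length as well, so each holds for its own list.

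Few strong sites were common to all libraries. Listed peaks were merged across libraries, and 49 of the merged regions reached into the windows. Of these, 36 (73.5%) came from 1 library and 2 (4.08%) from all 4. Over the windows of all protein-coding genes these shares were 86.6% and 1.46%. The 2 regions common to all were the internal Bbc3 site and the Ftl1-side site in the Bax window. In the full lists, 9 of 242 regions (3.72%) were found in all 4 libraries, against 0.877% over all windows. They comprised 3 Mcl1 regions, 2 each of Bbc3 and Bax, and 1 each of Bcl2l1 and Bid.

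Other apoptosis genes were read at their gene ends from 3 lists. Of 14 further BCL2 family genes, 1, 6, 1 and 4 were listed. Of 16 genes of the caspase pathway downstream of mitochondria, 1, 11, 5 and 9 were listed, and of 9 death receptor genes, 3, 4, 1 and 6. The background is the gene-end share given above for each library. In all 4 libraries, listed peaks lay at Birc2 (an inhibitor of apoptosis that is a ubiquitin ligase), with ranks of 16246, 19002, 6185 and 2869, and at Tnfrsf1a (the TNF receptor), with ranks of 5704, 8279, 8005 and 5595. None of the 39 genes was listed in 1 cell type alone, where 0.932% of all genes were LSC-only and 0.873% HSC-only at their ends. Genes listed in both replicate 2 libraries only included Bad, Bmf, Bcl2l12 and Bnip3 of the family, Cycs, Apaf1 and Birc5 of the caspase pathway, and Fadd of the death receptor pathway (7.91% of all genes). By windows instead of ends, Endog was listed in both LSC and neither HSC library (2.84% of all genes). Bnip3l and Tnfrsf10b showed the reverse pattern (2.33%). Apart from Birc2 and Tnfrsf1a, the genes of these lists were named after their values were seen.

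**Figure D4:**
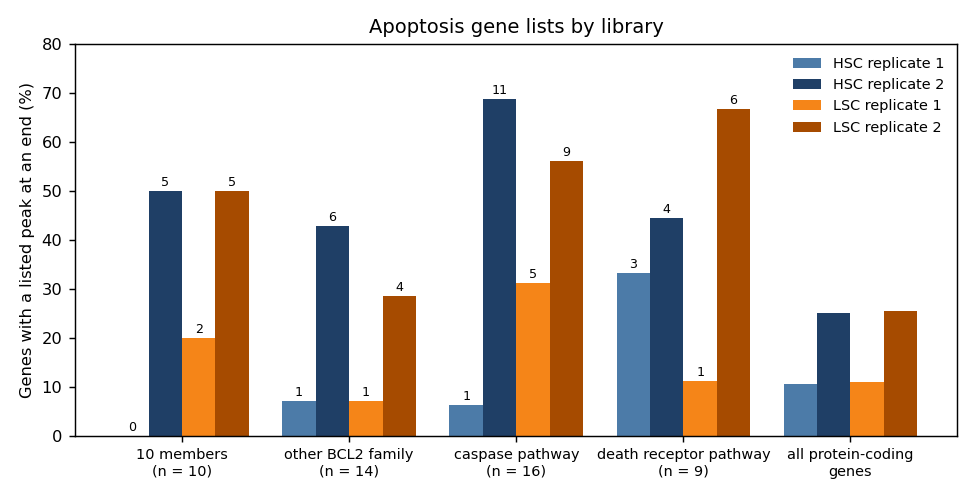
Share of the genes in each list with a listed peak at a gene end, in percent, for the 10 genes and the 3 other apoptosis lists, with a bar per library, its count above the bar, and the share of all protein-coding genes on the right. The caspase pathway has 11 and 9 of 16 genes in the replicate 2 libraries of HSC and LSC, and 1 and 5 of 16 in the replicate 1 libraries.

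Genes with window ranks most like those of Bbc3, by the summed absolute difference in log10 rank over the 4 libraries, were sought among 15603 genes on other chromosomes. BC005624 was the nearest, with a sum of 0.347 and ranks of 363, 973, 984 and 489. Tmem11 followed with 0.430, and Aasdhppt with 0.448. The likeness is one of peak rank in 4 libraries and was measured on windows rather than gene ends, because no member had a peak at its ends in all 4 libraries.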

How the data were processed

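Peak lists of 4 CUT&Tag libraries were analysed. The submitters' processing notes name FastQC 0.11.5, Bowtie2 2.2.9 as aligner, MACS2 as peak caller, ChIPseeker and the build mm10. The sources used here give no calling threshold, read filter or duplicate treatment. A list of its own was deposited for each library. The deposited score ranks peaks as a whole number, the deposited fold is the peak's ratio to background in its own library, and the deposited −log10 p values set the ranks. Fold and rank are the authors' values or orders within a list and give no comparison of amounts between libraries.

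Peaks on the autosomes, X and Y were kept (Python 3.11.15, pandas 2.3.3, numpy 2.4.6), ties in −log10 p were ordered by fold and position, and the 20000 strongest were called listed. Gene positions, starts and promoters came from RefSeq tables of GRCm38.p6. Overlap meant at least 1 bp. The overlap code was tested on simulated lists. Genes named by rule are the 10 members, other apoptosis genes and the genes most like Bbc3 in rank. The rule took apoptosis genes listed at an end in all 4 libraries, or in both libraries of 1 cell type and neither of the other. Further apoptosis genes were named after their values were seen, and marker genes came from lists of cell type markers. The choice of genes most like Bbc3 was planned on gene ends and moved to windows after the data were seen. It passed over predicted and Rik genes. The members and lists were chosen with earlier results of these data known. Alternatives were other list lengths, flanks, end windows, the mean of the LSC minus HSC differences within each replicate number, and leaving out each library. Columns of q-values were not used.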

Additional observations from a re-analysis of the deposited data

How the results depend on the processing

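The number of gene and library pairs with a listed peak in the window, 31 of 40, stayed within 1.5 times under the alternatives run. Pairs with a listed peak at a gene end rose from 12 to 26 with the full lists and to 25 with end windows of 3000 bp. The 6 genes listed in all 4 libraries became 3 without flanks, 3 with the 10000 strongest peaks and 10 on using every deposited peak. Under these 3 rules the pattern was shown by 9.54%, 8.27% and 83.0% of all genes, beside 18.1% in the main count. The genes listed in all libraries numbered 6 to 7 when 1 library was left out. Genes listed in LSC alone, 0 in the main count, numbered 2 with the 10000 strongest peaks, 1 without flanks and 0 to 1 with a library left out (1 without HSC replicate 2). HSC-only genes numbered 0 throughout. The LSC minus HSC difference of 0.5 genes became 0.0 with every deposited peak and −1.0 with the 40000 strongest. It ranged from −1.0 (without HSC replicate 1) to 2.0 with a library left out, and was −0.5 without LSC replicate 2. For any peak at an end, the difference of 2.0 became 0.0 with windows of 3000 bp and ranged from −1.5 (without HSC replicate 1) to 5.5 with a library left out. Keeping only peaks nearest to the gene's own start, an alternative chosen after seeing the data, took Bax from 4 to 3 libraries, the genes listed in all 4 from 6 to 5 and the pairs in the window from 31 to 30. It was not run for gene ends or for the LSC minus HSC differences.

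Replicate numbers are shared between the groups, but the labels do not say that they pair animals or batches. With the replicate number as a block, the window difference was 0.5 (exact p = 1.0) and that for any peak at an end was 2.0 (exact p = 1.0). The counts of listed genes deviated from their group means by −1.5 and 1.5 in HSC replicates 1 and 2 and by −1.0 and 1.0 in LSC replicates 1 and 2. Read depth is unknown, and a gene without a listed peak may still be bound.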
